A study of Mus musculus with 4 samples.

Results

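Forced expression of Tox2 without IL-6 was set against IL-6 without forced Tox2, in 2 of the 4 RNA-seq libraries of a study on how Tox2 acts in the differentiation of T follicular helper (Tfh) cells. The library named Th0 (Tox2) came from cells given a retrovirus that carries Tox2 and GFP and kept in a Th0 culture. The library named Tfh-like (GFP) came from cells given a retrovirus with GFP only and kept in a Tfh-like culture. In all 4 libraries naive CD4+ T cells were taken from wild-type C57BL/6 mice aged 7 to 8 weeks (spleen with lymph nodes). They were activated and infected under neutral conditions and sorted for GFP before the final culture. Antibodies against IFN-gamma, IL-2 and IL-4 were in both cultures, and IL-6 was added in the Tfh-like one only. The remaining libraries, Th0 (GFP) and Tfh-like (Tox2), are given beside the compared pair because they show where each value lies with neither agent and with both. Tox2 came from a virus, so its level is not that of the cell's own gene, and the number of animals is not given in the labels. Virus and culture both differ between the libraries compared, so the effect of one agent and the absence of the other cannot be told apart in a single fold.

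Tox2 is an HMG-box protein of the TOX family, which binds DNA and bends it. IL-6 binds its receptor chain and gp130 (Il6st), which leads to phosphorylation of STAT3, and STAT3 then turns on feedback inhibitors such as Socs3 and helper genes such as Il21 and Maf. Bcl6 is the transcriptional repressor that defines Tfh cells, Cxcr5 the chemokine receptor that takes them to the follicle, and Blimp-1 (Prdm1) the repressor that opposes Bcl6. In the presence of TGF-beta, IL-6 is also known to drive the Th17 program of the IL-17 cytokines.

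There was 1 library in each group, so the difference has no replicate check and the direct comparison gives no p-value. The only p-values given are from an additive model of all 4 libraries, and they do not measure spread between replicates. Total counts were 13673774 in Th0 (Tox2) and 13518274 in Tfh-like (GFP), and a count of 0 allowed up to 3 counts, or 0.219 and 0.222 CPM, the count relative to the total of its library. Differences are log2 folds of scaled CPM with a prior count of 2, and a positive fold means higher in Th0 (Tox2). Of counts joined by "against", the first is that of Th0 (Tox2) and the second that of Tfh-like (GFP). A list of 4 counts runs from Th0 (GFP) through Tfh-like (GFP) and Th0 (Tox2) to Tfh-like (Tox2). Each fold has beside it an exact 95% interval for counting error only. Intervals and ratios are of the scaled counts without the prior count, so a fold need not lie at the centre of its interval. A gene was called 2-fold apart where its log2 fold was 1 or more in either direction and 0 lay outside the interval. A gene was called within 1.5-fold where its whole interval lay inside that range. The T-cell label was checked on 10 CD4+ T-cell markers; all 10 were measured, and their summed level was 6225 CPM in Th0 (Tox2) and 5864 in Tfh-like (GFP). Cd2 alone among them was 2-fold apart (-1.40). Of 8 B-cell markers 6 were not listed in the tables, Ms4a1 among them. The 2 that were listed, Cd79a and Ebf1, summed to 10.2 CPM in Th0 (Tox2) and 29.9 in Tfh-like (GFP), most of it Ebf1 (118 and 380 counts). Macrophage markers summed to 12.5 and 8.27 CPM and dendritic-cell markers to 3.46 and 1.99, with Csf1r, Adgre1, Lyz2 and Flt3 not listed. Cd8a and all 5 NK-cell markers were not listed either. The other CD8 T-cell marker, Cd8b1, was listed, at 9.14 CPM in Th0 (Tox2) and 10.6 in Tfh-like (GFP). All 13 mitochondrial transcripts had a fold above 0, and their sum was 24129 CPM in Th0 (Tox2) and 20595 in Tfh-like (GFP). Whether the makeup of the cells or RNA quality had a part in any result was not tested.

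Tox2 itself (chromosome 2, 163203125 to 163324170, plus strand, GRCm38) checked the labels. It had 144 counts in Th0 (GFP), 851 in Tfh-like (GFP), 35297 in Th0 (Tox2) and 32246 in Tfh-like (Tox2). Both libraries labelled Tox2 were far above both labelled GFP. Between the compared libraries the log2 fold was 5.28, with an interval of 5.19 to 5.38. Tfh-like (GFP) was thus no library without Tox2: its deposited level was 15.4 FPKM, against 2.49 FPKM in Th0 (GFP) and 602 FPKM in Th0 (Tox2). The relatives Tox (1508 counts in Th0 (Tox2) and 839 in Tfh-like (GFP)) and Tox4 (2559 and 2326 counts) differed by log2 folds of 0.76 and 0.05.

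Of 10894 genes compared, 1375 (12.6%) were 2-fold apart. The higher library was Th0 (Tox2) for 548 genes (5.03%) and Tfh-like (GFP) for 827 genes (7.59%). The whole interval lay within 1.5-fold for 6228 genes (57.2%), and 3291 genes met neither rule. The median log2 fold over all genes compared was 0.00. At 4-fold apart 168 genes were higher in Th0 (Tox2) and 306 in Tfh-like (GFP), and at 8-fold apart the counts were 71 and 129. As an alternative with a test, an additive edgeR quasi-likelihood model of culture and virus over all 4 libraries gave 1636 genes (15.0%) at a Benjamini-Hochberg adjusted p under 0.05. It has 1 residual degree of freedom and no replicates. The model uses the same counts as the folds, so passing it is no separate support for a call. Of the 1375 genes that were 2-fold apart, 1027 passed it.

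**Figure D1:**
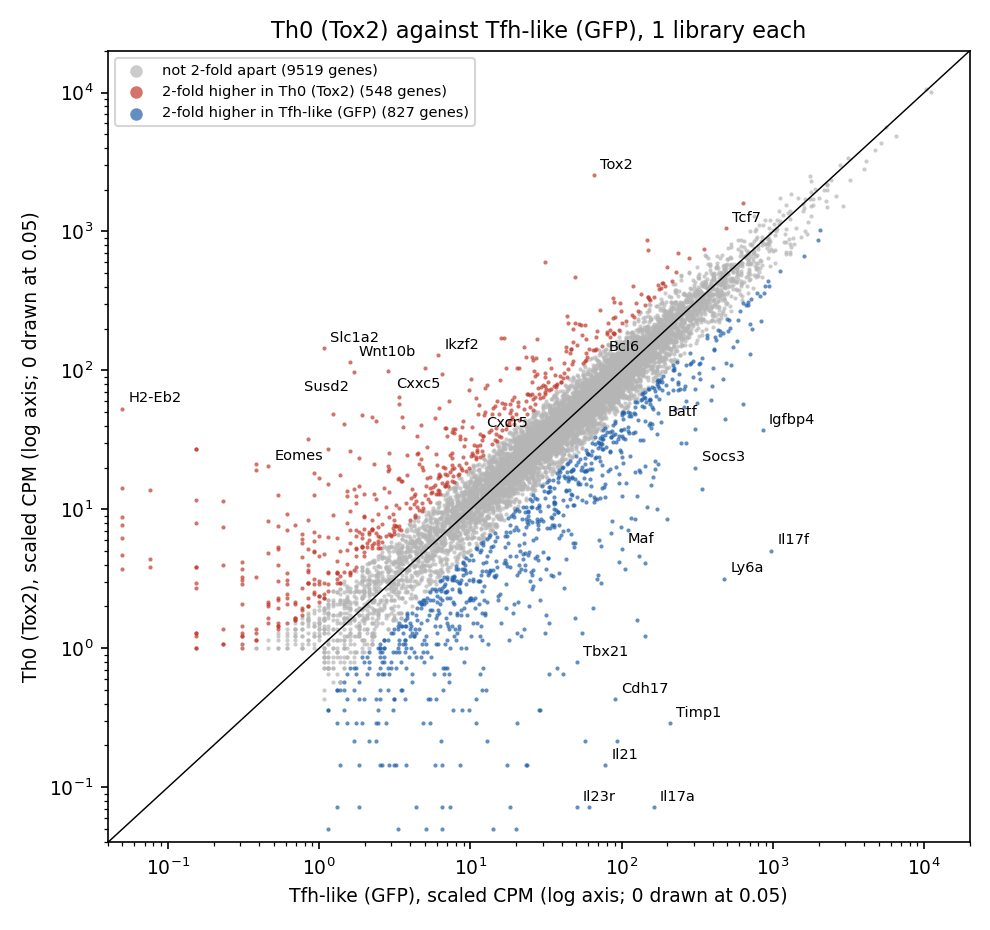
Scaled CPM of each gene compared in Tfh-like (GFP) (horizontal, log axis) and Th0 (Tox2) (vertical, log axis), 1 library each, with genes at 0 drawn at 0.05. Red points are the 548 genes 2-fold higher in Th0 (Tox2) and blue points the 827 genes 2-fold higher in Tfh-like (GFP), and Tox2, Il17a and Timp1 lie far from the line of equal levels.

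Genes with the largest folds had 0 to 70 counts in the lower library. On the Th0 (Tox2) side H2-Eb2, a class II MHC chain gene, had 738 counts against 0 in Tfh-like (GFP), which was at least 231-fold higher when the 0 of that library was set at 3 counts. Th0 (GFP) had 18 counts of H2-Eb2 and Tfh-like (Tox2) had 17, so the high value belonged to 1 library of 4. Slc1a2, a glutamate transporter, had 2011 counts in Th0 (Tox2) and 14 in Tfh-like (GFP), a log2 fold of 6.89. Its count was 180 in Th0 (GFP) and 711 in Tfh-like (Tox2), so the compared libraries were its highest and lowest. The cell-surface gene Susd2 had 1342 against 22 counts, a log2 fold of 5.72, and only 14 in Th0 (GFP). Ghrh, growth hormone releasing hormone, had 198 counts against 0, at least 62.0-fold higher. Agr3 (122 against 0) and Zcchc12 (107 against 0) were at least 38.2-fold and 33.5-fold higher. C2cd4b had 191 counts against 1, a ratio of 180 with a counting interval of 31.8 to 7127. Stfa3, a stefin of the cystatin class, had 378 against 2 counts, but 407 in Th0 (GFP), so here Th0 (Tox2) was close to the Th0 control and the Tfh-like libraries were low.

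On the Tfh-like (GFP) side the largest fold was that of Il17a, the IL-17A cytokine of Th17 cells. It had 2125 counts in Tfh-like (GFP) and 1 in Th0 (Tox2), a ratio of 2261 with an interval of 405 to 89348. Th0 (GFP) had 56 counts of Il17a and Tfh-like (Tox2) 355. Its neighbour Il17f had 12709 counts in Tfh-like (GFP) and 70 in Th0 (Tox2), a log2 fold of -7.55, with 1018 in Th0 (GFP) and 2593 in Tfh-like (Tox2). For both cytokines Th0 (Tox2) was the lowest library and Tfh-like (GFP) the highest. Timp1, an inhibitor of metalloproteinases and a known STAT3 target, had 4 counts against 2730. Crispld2 (3 against 1217) and Upp1, uridine phosphorylase (3 against 749), had ratios of 432 and 266. Cdh17, a cadherin, had 6 counts against 1183. Ly6a, which encodes Sca-1, had 44 against 6204, and Ly6c1 of the same family 0 against 66, at least 23.4-fold lower in Th0 (Tox2). Read sharing between near-identical copies is possible for H2-Eb2, Stfa3, the Ly6 genes, Klrc1, Gbp2, the Bcl2a1 genes and histone genes, and their values are uncertain.

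**Figure D2:**
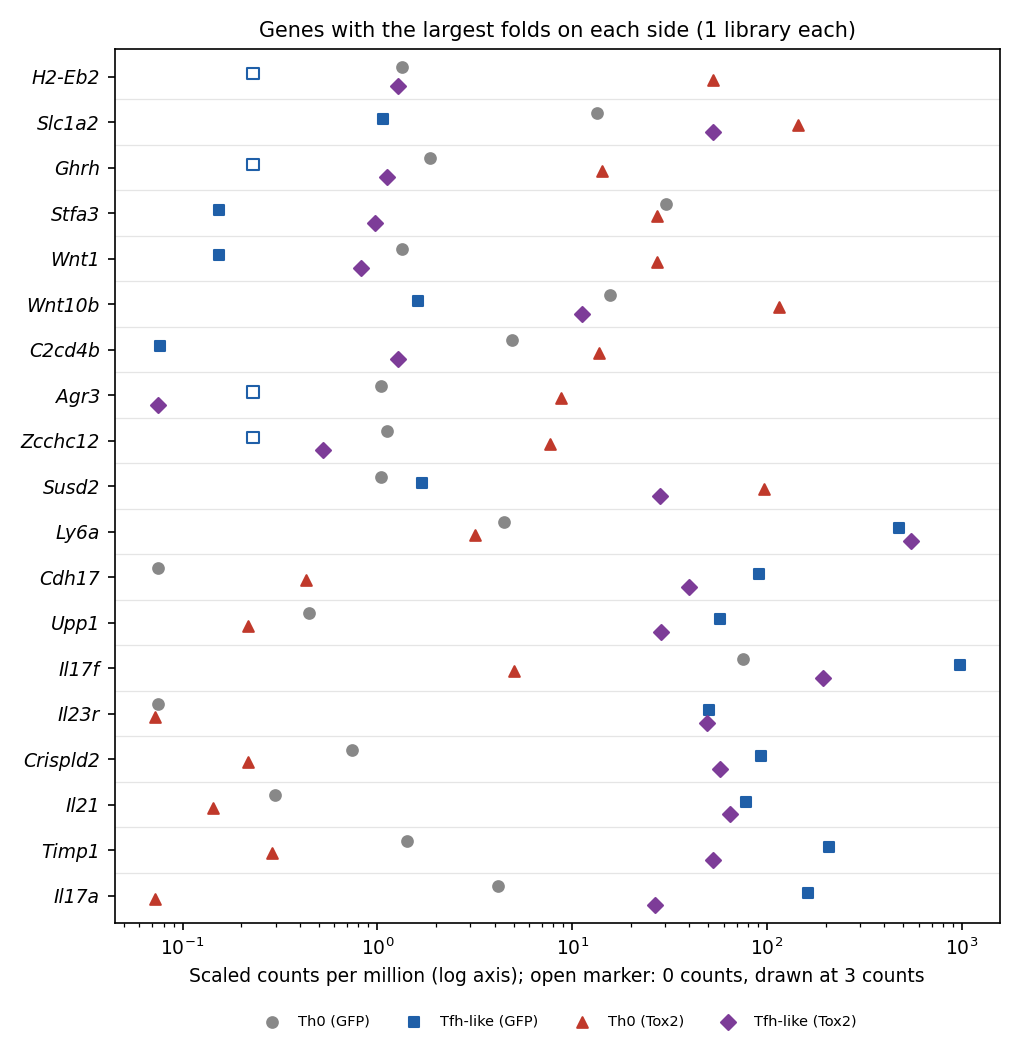
Scaled CPM (log axis) in the 4 libraries for genes with the largest folds on each side, taken from those of the rule for named genes, with open markers for 0 counts drawn at 3 counts. Red triangles, Th0 (Tox2), lie right of blue squares, Tfh-like (GFP), for H2-Eb2 to Susd2 and left of them for Ly6a to Il17a.

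Promoters were read for the letters of motifs that STAT, AP-1 and TCF proteins are known to bind, since the 3 families act downstream of IL-6, of T-cell activation and of Wnt. The AP-1 letters were TGANTCA, the STAT letters TTCNNNGAA and the TCF letters CTTTGAN, each on both strands, and a match of one counted whether or not it overlapped another. The windows were the 250 bases before the RefSeq start (GRCm38.p6), found for 8784 of the 10894 genes. The AP-1 letters stood in 59 of 636 genes higher in Tfh-like (GFP) (9.28%), 30 of 427 genes higher in Th0 (Tox2) (7.03%), 222 of 5098 genes within 1.5-fold (4.35%) and 451 of all 8784 (5.13%). The STAT letters stood in 6.29%, 6.32%, 6.85% and 7.10% of the same sets, and the TCF letters in 12.1%, 12.2%, 12.5% and 12.6%. No test was made of these shares, and the mean GC content of the windows lay between 60.02% and 60.27% in all 4 sets. Among genes named by the rule, the AP-1 letters were found in 14 of 62 on the Tfh-like (GFP) side and 0 of 37 on the Th0 (Tox2) side. The 0 lies near the 5.13% of all genes, and the full set higher in Th0 (Tox2) had 7.03%. The near-identical Bcl2a1a and Bcl2a1d are both among the 14. Genes named by the rule were chosen for their folds, and a match describes letters, not binding.

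Promoter stretches with the AP-1 letters in capitals are shown for 4 genes of different roles that were higher in Tfh-like (GFP): a cytokine (Il17a), a TNF receptor family member (Tnfrsf8, CD30), a granule protease (Gzmb) and a TNF family ligand (Tnfsf14, LIGHT). They are written 5′ to 3′ on the strand of the gene. Il17a is from chr1:20730655-20730727 (plus strand), Tnfrsf8 from chr4:145315230-145315356, Gzmb from chr14:56262335-56262452 and Tnfsf14 from chr17:57194275-57194401 (all 3 on the minus strand). The first base of the match lay 244, 132, 58 and 160 bases before the RefSeq start in that order. For Gzmb the RefSeq start is base 56262334, upstream of the GENCODE start at base 56262260.
Il17a: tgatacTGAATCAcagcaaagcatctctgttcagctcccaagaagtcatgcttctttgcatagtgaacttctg
Tnfrsf8: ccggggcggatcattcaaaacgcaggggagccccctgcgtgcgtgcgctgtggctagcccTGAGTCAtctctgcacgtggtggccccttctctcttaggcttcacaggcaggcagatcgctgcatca
Gzmb: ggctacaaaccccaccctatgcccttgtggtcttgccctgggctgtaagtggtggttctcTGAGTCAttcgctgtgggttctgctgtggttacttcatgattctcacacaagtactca
Tnfsf14: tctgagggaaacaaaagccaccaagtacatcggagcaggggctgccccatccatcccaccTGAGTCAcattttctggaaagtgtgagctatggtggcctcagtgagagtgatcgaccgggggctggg
The Il17a promoter holds TGAATCA and the other 3 hold TGAGTCA, the AP-1 letters with the open position filled by A or G.

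Tfh genes lay on both sides. The list holds Tox2, which the virus supplied, and Tox2 was left out of its counts after the values were seen. Of the other 25 members compared, 4 were 2-fold higher in Th0 (Tox2), 6 were 2-fold higher in Tfh-like (GFP) and 6 lay within 1.5-fold, where the shares of all genes were 5.03%, 7.59% and 57.2%. Their median log2 fold was 0.28, beside 0.00 over all genes. The 4 were the receptor chain Il6st, the receptors Cxcr5 and Pdcd1, and the transcription factor Tcf7. The 6 were Il21 and its receptor Il21r and the transcription factors Maf, Batf, Ascl2 and Irf4. In bulk RNA, fewer cells with a transcript and less of it per cell cannot be told apart.

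Bcl6 had 591 counts in Th0 (GFP), 977 in Tfh-like (GFP), 1734 in Th0 (Tox2) and 2632 in Tfh-like (Tox2). Its level thus lay in the order neither agent, IL-6, Tox2, both. The fold between the compared libraries was 0.74 (interval 0.62 to 0.85), which passed neither the 2-fold nor the 1.5-fold rule. Cxcr5 had 106, 150, 488 and 514 counts in that order of libraries, and the log2 fold of Th0 (Tox2) over Tfh-like (GFP) was 1.60 (1.35 to 1.89). Both libraries with Tox2 were high for Cxcr5 and both with GFP were low. The same held for Tcf7, which encodes TCF-1, a factor of naive, memory and Tfh cells: 6497, 6362, 14605 and 14556 counts, a log2 fold of 1.11. Lef1, its relative, differed by 0.28 and lay within 1.5-fold.

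Pdcd1, which encodes the inhibitory receptor PD-1 that Tfh cells carry at high levels, had 6417 counts in Th0 (GFP), 3054 in Tfh-like (GFP), 9798 in Th0 (Tox2) and 7037 in Tfh-like (Tox2). The compared libraries were its lowest and highest, with a log2 fold of 1.59. Il6st, the gp130 chain, likewise had its lowest count in Tfh-like (GFP) (684) and its highest in Th0 (Tox2) (2989), a log2 fold of 2.03. Its partner Il6ra, the chain that binds IL-6, had 949 against 1745 counts, a log2 fold of -0.97. The costimulatory receptor Icos had 1674 against 2881 counts, a log2 fold of -0.87, and Cd40lg, which signals to B cells, had 1263 against 728, a log2 fold of 0.70. Neither reached 2-fold. SAP (Sh2d1a), the adaptor of SLAM receptors, and Bach2 lay within 1.5-fold at 0.33 and 0.25.

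Il21, the cytokine with which Tfh cells act on B cells, was on the other side. It had 4 counts in Th0 (GFP), 1015 in Tfh-like (GFP), 2 in Th0 (Tox2) and 863 in Tfh-like (Tox2). Both Tfh-like libraries were high and both Th0 libraries near 0, and the ratio between the compared libraries was 540 (interval 149 to 4465). Maf, a factor that activates Il21, had 214, 1302, 72 and 1208 counts, a log2 fold of -4.23 (interval -4.63 to -3.92), with Th0 (Tox2) below Th0 (GFP). Batf had 551, 2374, 587 and 4882 counts and a log2 fold of -2.10. Ascl2, a factor known to induce Cxcr5, had 42 counts in Th0 (Tox2) and 146 in Tfh-like (GFP), a log2 fold of -1.84. Irf4, the partner of Batf on DNA, had 3224 against 7632 counts and a log2 fold of -1.33. It was low in both Tox2 libraries, with 3146 counts in Tfh-like (Tox2) and 5652 in Th0 (GFP).

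Genes that oppose the Tfh fate lay mostly on the Tfh-like (GFP) side. Of 15 compared, 0 were 2-fold higher in Th0 (Tox2), 5 were 2-fold higher in Tfh-like (GFP) and 5 lay within 1.5-fold, with a median of -0.51. Over all genes the shares in that order were 5.03%, 7.59% and 57.2%, so the 0 lies near its share. Tbx21, which encodes the Th1 regulator T-bet, had 657 counts in Tfh-like (GFP) and 11 in Th0 (Tox2), a log2 fold of -5.75. Id2, an inhibitor of E proteins, had 864, 3983, 523 and 3526 counts over the 4 libraries, a log2 fold of -3.01, and its values followed the culture. The IL-2 receptor alpha chain gene Il2ra had 5402 counts in Th0 (GFP), 12209 in Tfh-like (GFP), 5591 in Th0 (Tox2) and 2906 in Tfh-like (Tox2). Here Tfh-like (GFP) alone was high, and the log2 fold was -1.22. In the additive edgeR fit Il2ra had an adjusted p of 0.190. Prdm1 was low, with 20 counts in Tfh-like (GFP) and 9 in Th0 (Tox2), and its log2 fold of -1.08 had an interval of -2.56 to -0.04 and an adjusted p of 0.323 in the additive edgeR fit. With a prior count of 10 its fold was -0.71, and the call ended. S1pr1, the receptor for leaving lymphoid tissue, was lower (1139 against 2402 counts). Its regulator Klf2 and the homing receptor Ccr7 had log2 folds of 0.63 and 0.78.

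**Figure D3:**
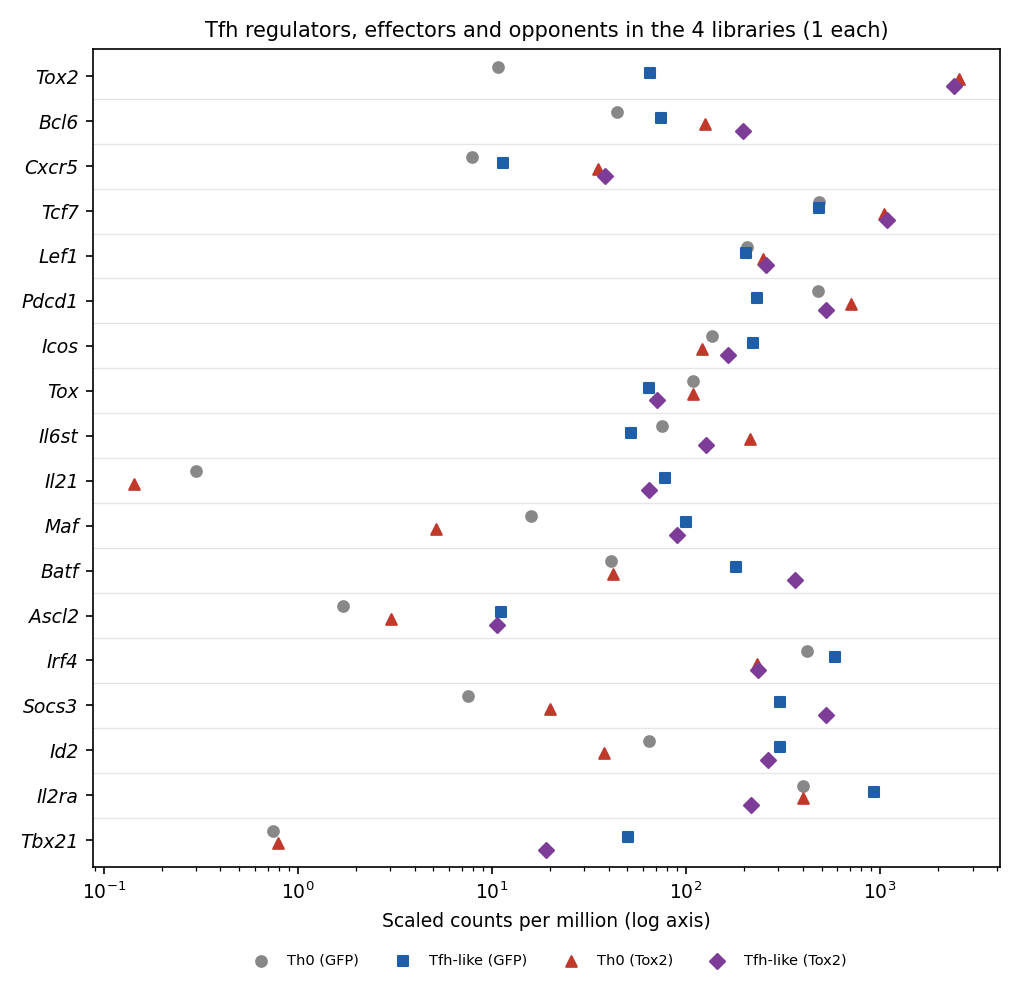
Scaled CPM (log axis) of Tfh regulators, effectors and opposing genes in the 4 libraries, 1 marker per library. For Cxcr5 and Tcf7 the red and purple markers (Tox2 virus) lie together on the right, and for Il21, Maf, Socs3, Id2 and Tbx21 the blue and purple markers (Tfh-like culture) do.

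The IL-6 and STAT3 response list gave the second lowest median of the 37 lists, after Th17 genes. Of 20 genes 13 were 2-fold higher in Tfh-like (GFP), 2 were 2-fold higher in Th0 (Tox2) (Il6st and Fos) and 0 lay within 1.5-fold, with a median of -1.95. Among all genes these shares were 7.59%, 5.03% and 57.2%. Il6st, Il21, Maf, Batf, Bcl6 and Il6ra are on both this list and the Tfh list. Socs3, the feedback inhibitor of gp130, had 101 counts in Th0 (GFP), 4010 in Tfh-like (GFP), 277 in Th0 (Tox2) and 7021 in Tfh-like (Tox2), a log2 fold of -3.94. Both libraries with IL-6 were high. Bcl3, an IkB protein that STAT3 induces, had 803 against 4103 counts (-2.44), and Stat3 itself 9846 against 15845 (-0.78). In the SOCS family Socs1 (-1.76) and Cish (-1.56) were also 2-fold higher in Tfh-like (GFP), and Socs4 and Socs7 lay within 1.5-fold. None of the 8 was 2-fold higher in Th0 (Tox2), where the share of all genes was 5.03%. No STAT gene was 2-fold apart among 7, beside 12.6% of all genes, but 6 had a fold below 0, Stat3 and Stat6 (-0.18) among them. A count of 0 among so few genes lies near these shares.

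Th17 genes were the list furthest to the Tfh-like (GFP) side, with a median of -2.64. In it 14 of 18 genes were 2-fold higher there and 0 in Th0 (Tox2), beside 7.59% and 5.03% of all genes. Beside Il17a, Il17f and Il21 they held Il23r, the IL-23 receptor chain, with 1 count against 657 and a ratio of 699 (interval 125 to 27653). The IL-1 receptor Il1r1 had 10 against 157 counts (-3.81), the aryl hydrocarbon receptor Ahr 62 against 347 (-2.53), and the chemokine Ccl20 7 against 165 (-4.29). Ccl20 also had 156 counts in Th0 (GFP) and 21 in Tfh-like (Tox2), so both Tox2 libraries were low for it. Ccr6, the receptor of Ccl20, was not 2-fold apart (0.60).

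Th1 and cytotoxic genes had 11 of 18 members 2-fold higher in Tfh-like (GFP) and 2 in Th0 (Tox2), beside 7.59% and 5.03% of all genes. Their median was -1.49. Il12rb2, the IL-12 receptor chain, had 22 counts against 1635 (-6.18), and the Th1 receptor Cxcr3 104 against 1300 (-3.71). The granule genes Gzmb (47 against 333, -2.86), Prf1 (46 against 461, -3.36) and Nkg7 (157 against 854, -2.52) went the same way. Gzmb had 204 counts in Th0 (GFP) and 16 in Tfh-like (Tox2), so both Tox2 libraries were low for it. Eomes, the T-box factor of memory and cytotoxic cells, lay on the other side from Tbx21. It had 85 counts in Th0 (GFP), 6 in Tfh-like (GFP), 284 in Th0 (Tox2) and 48 in Tfh-like (Tox2), a log2 fold of 5.08. Ccl5 was the other member higher in Th0 (Tox2), at 95 against 28 counts (1.61), but with 90 in Th0 (GFP). Runx3 and Runx2, partners of T-box factors in the T-box and Runx list, were higher in Tfh-like (GFP), with 1454 against 5209 (-1.93) and 175 against 811 counts (-2.29).

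Genes of the Th2 list lay mostly on the Th0 (Tox2) side. Both cultures held an antibody against IL-4. Only 6 of 13 listed genes were measured, and 4 were 2-fold higher in Th0 (Tox2), beside 5.03% of all genes. Il9r had 169 counts in Th0 (GFP), 16 in Tfh-like (GFP), 674 in Th0 (Tox2) and 50 in Tfh-like (Tox2), a log2 fold of 5.15. The chemokine receptor Ccr8 had 434, 131, 1204 and 412 counts (3.09). For both genes Tfh-like (GFP) lay below Th0 (GFP) and Th0 (Tox2) above it. Gata3, the Th2 regulator, had 803 counts in Th0 (GFP), 425 in Tfh-like (GFP), 1142 in Th0 (Tox2) and 732 in Tfh-like (Tox2), a log2 fold of 1.33. The cytokine Il13 had 61 counts against 1, a ratio of 57.3 with an interval of 9.91 to 2301. Nfil3 and Areg were 2-fold higher in Tfh-like (GFP), at -1.88 and -1.64, and Il4 and Il5 were not listed. Il13 and Areg were low, with 4.39 CPM in Th0 (Tox2) and 3.68 CPM in Tfh-like (GFP), and a filter at a CPM of 5 removes both.

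The Ikaros family was above 0 in all 5 members and 2-fold higher in Th0 (Tox2) in 2, beside 5.03% of all genes. Ikzf2, which encodes Helios, had 118 counts in Th0 (GFP), 80 in Tfh-like (GFP), 1795 in Th0 (Tox2) and 490 in Tfh-like (Tox2), a log2 fold of 4.37. Both Tox2 libraries were above both GFP libraries. Ikzf3, Aiolos, had 119, 99, 324 and 347 counts (1.60). Of the 13 regulatory T-cell genes, however, Ikzf2 and Nrp1 (1.19) alone were 2-fold higher in Th0 (Tox2), beside 5.03% of all genes. Nrp1 had 1770, 763, 1849 and 713 counts over the 4 libraries, so Th0 (Tox2) was close to Th0 (GFP). In Tfh-like (GFP) 6 were 2-fold higher, beside 7.59% of all genes. Among them were the receptors Gpr15 (-4.24) and Gpr83 (-2.06) and the TGF-beta docking protein Lrrc32 (-1.39). Foxp3, the factor that defines regulatory T cells, was not listed in the tables.

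Inhibitory receptors and the factors that go with them gave 7 of 13 members 2-fold higher in Th0 (Tox2), 1 higher in Tfh-like (GFP) and a median of 1.20. Among all genes these shares were 5.03% and 7.59%. Lag3 had 2072 counts in Th0 (GFP), 2395 in Tfh-like (GFP), 5917 in Th0 (Tox2) and 7170 in Tfh-like (Tox2), a log2 fold of 1.21, with both Tox2 libraries high. Cd160 (345 against 77, 2.05), Cd101 (681 against 240, 1.41) and Tigit (563 against 229, 1.20) were on the same side as Pdcd1. Ctla4 was the exception, with 2815 counts in Th0 (Tox2) and 6767 in Tfh-like (GFP), a log2 fold of -1.35. The PD-1 ligand Cd274 lay within 1.5-fold (0.07).

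Immediate genes of T-cell receptor signalling overlapped with that list through the Nr4a nuclear receptors. Of 26 TCR activation genes 7 were 2-fold higher in Th0 (Tox2) and 2 in Tfh-like (GFP) (Irf4 and Il2ra), with a median of 0.69. Over all genes 5.03% and 7.59% were. Nr4a1 had 7114 counts in Th0 (GFP), 1946 in Tfh-like (GFP), 10200 in Th0 (Tox2) and 3453 in Tfh-like (Tox2), a log2 fold of 2.30. Both Th0 libraries were above both Tfh-like libraries. Nr4a3 (2.50), the ERK phosphatase Dusp5 (2338 against 358, 2.61), Egr3 (1.48), Spry2 (1.40) and Egr1 (1.05) had the same sign. Xcl1, a chemokine, had 179 counts against 30 (2.41) and was high in both Tox2 libraries, with 28 in Th0 (GFP) and 184 in Tfh-like (Tox2). The early surface marker Cd69 lay within 1.5-fold (-0.13).

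Wnt genes held some of the largest folds on the Th0 (Tox2) side. Wnt10b, a secreted Wnt ligand, had 211 counts in Th0 (GFP), 21 in Tfh-like (GFP), 1596 in Th0 (Tox2) and 150 in Tfh-like (Tox2), a log2 fold of 6.03 (interval 5.54 to 6.85). Its neighbour on chromosome 15, Wnt1, had 18, 2, 378 and 11 counts, a ratio of 178 with an interval of 48.8 to 1472. Th0 (Tox2) was the single high library for both ligands. Cxxc5, a zinc finger inhibitor of Wnt signalling, had 89, 37, 1372 and 638 counts (5.05), high in both Tox2 libraries, and the secreted Dkk3 had 82 against 12 (2.50). With Fzd6 and Tcf7, 6 of 17 list members were 2-fold higher in Th0 (Tox2), beside 5.03% of all genes. Tcf7l1 (-2.06) and the receptor Fzd7 (-1.76) were 2-fold higher in Tfh-like (GFP), beside 7.59% of all genes. The transducer Ctnnb1 (beta-catenin) and Gsk3b, a kinase of the complex that destroys it, lay within 1.5-fold at 0.17 and 0.15, and the target gene Axin2 had a log2 fold of 0.73. The median of the list was 0.56.

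IL-2 and STAT5 response genes had a median of -1.08. Beside 5.03% of all genes, 0 of 17 were 2-fold higher in Th0 (Tox2), and beside 7.59%, 9 were 2-fold higher in Tfh-like (GFP). The 9 included the kinase Pim1 (279 against 1195, -2.18), Cdk6 (735 against 2948, -2.09) and Ccnd3 (2689 against 5833, -1.21), as well as Il2ra, Cish and Gzmb. The cultures shared the antibody against IL-2. Of 8 receptor chains in the common gamma chain list, 3 were 2-fold higher in Tfh-like (GFP) and 1 in Th0 (Tox2). Over all genes 7.59% and 5.03% were, and a count of 1 among so few genes lies near its share. The 3 were Il4ra (2746 against 9531, -1.88), Il21r (3731 against 7961, -1.18) and Il2ra, and the 1 was Il9r.

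AP-1 and BATF factors lay on both sides. Of 17 factors 4 were 2-fold higher in Th0 (Tox2) and 8 in Tfh-like (GFP), beside 5.03% and 7.59% of all genes, with a median of -0.88. Fosb (234 against 67, 1.69), Jdp2 (946 against 404, 1.13), Bach1 (211 against 90, 1.12) and Fos (178 against 77, 1.10) were the 4. Jun (211 against 758, -1.92), Batf3 (5 against 40, -2.66), Fosl2 (-1.81) and Junb (-1.20) were on the other side with Batf and Maf, and Jund and Fosl1 lay within 1.5-fold.

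Chemokine receptors also split, with Cxcr5 and Ccr8 2-fold higher in Th0 (Tox2) and Cxcr3, Ccr4 (-1.77) and Cxcr4 (-1.37) higher in Tfh-like (GFP). Of 6 chemokines measured, Cx3cl1 (176 against 7, 4.23), Xcl1 and Ccl5 were 2-fold higher in Th0 (Tox2), beside 5.03% of all genes. In the TNF families, Tnfrsf13c, the BAFF receptor, had 1089 counts against 167 (2.60), but also 999 in Th0 (GFP). Tnfrsf8, CD30, had 17 against 1868 (-6.71) and Tnfsf14, LIGHT, 516 against 1287 (-1.40). The death receptor Fas (176 against 339, -1.03) was at the edge of the rule and lost its call under 3 of the other settings. In the integrin and adhesion list, Itgb3 (2934 against 742, 1.89) and Itga3 (793 against 8255, -3.47) stood on opposite sides. Genes of the naive and memory list did too: Dapl1 had 531 counts against 90 (2.45), with 685 in Th0 (GFP). Igfbp4 had 514 against 11195 (-4.53) and the chromatin organiser Satb1 3140 against 10857 (-1.88). Interferon-stimulated genes had Gbp2 (-2.67), Oas3 (-1.46) and Zbp1 (-1.13) 2-fold higher in Tfh-like (GFP) and Ifit2 (1.04) higher in Th0 (Tox2), of 16 compared. Among all genes the shares were 7.59% and 5.03%. With the trend of folds with GC and length removed Ifit2 was at 0.96 and Nrp1 at 0.99, and both calls ended.

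**Figure D4:**
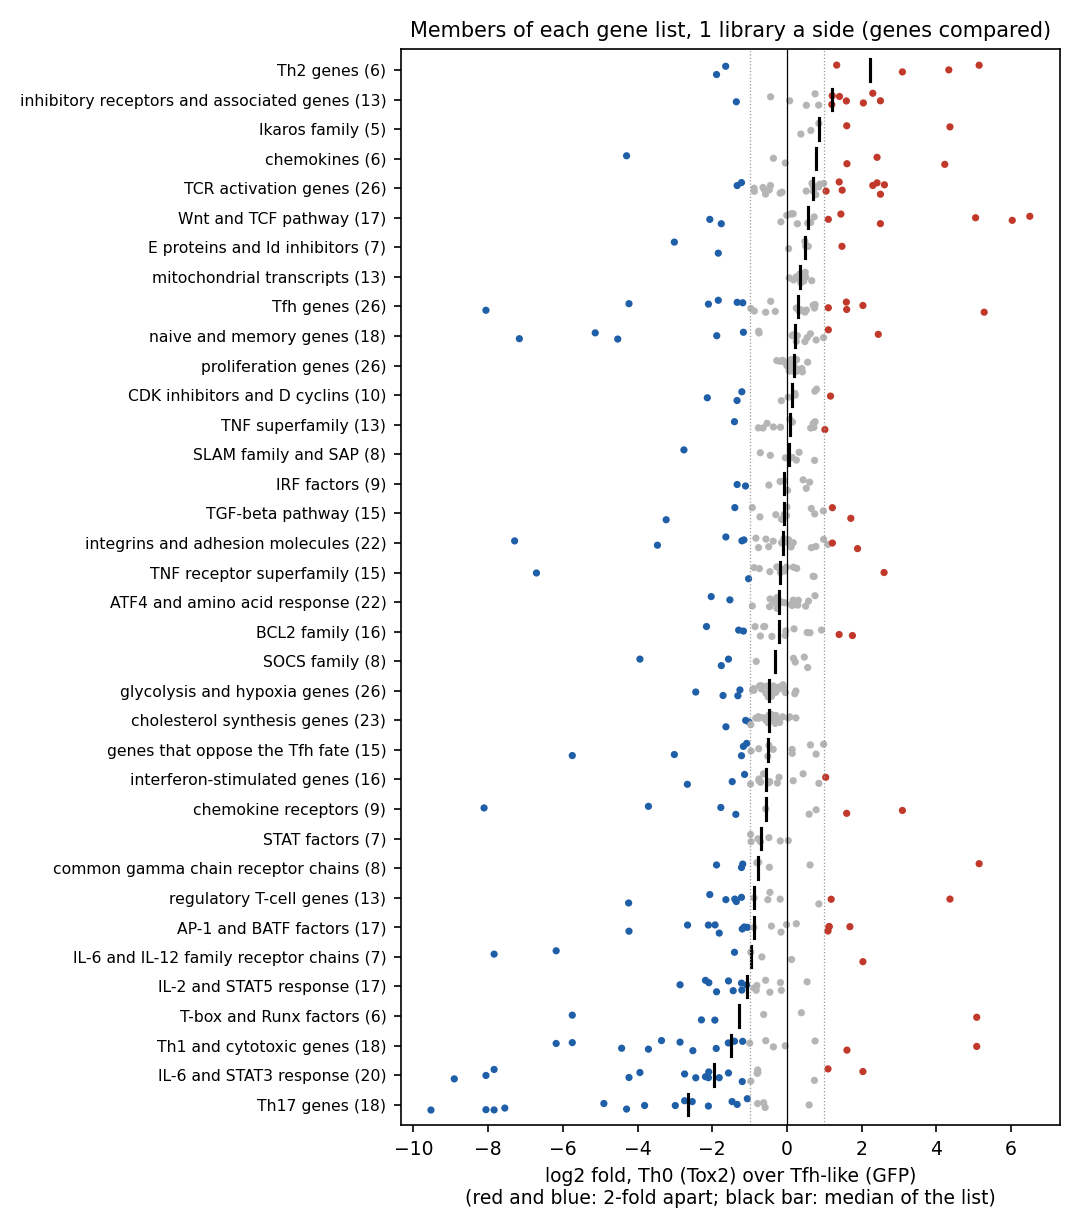
Log2 fold of Th0 (Tox2) over Tfh-like (GFP) for each compared member of the gene lists with 5 or more such members, with red and blue points for genes 2-fold apart, grey points for the rest and a black bar at the median of the list. The medians run from -2.64 (Th17 genes) to 2.21 (Th2 genes). Proliferation genes (median 0.18) and mitochondrial transcripts (median 0.36) stay in narrow ranges, and all 13 mitochondrial transcripts lie above 0.

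Most growth and metabolism genes were less than 2-fold apart, as were most of all genes compared. Over all genes 12.6% were 2-fold apart and 57.2% lay within 1.5-fold. Of 26 proliferation genes 25 lay within 1.5-fold, none was 2-fold apart and the median was 0.18. The exception was Mki67, with 10710 counts in Th0 (Tox2) and 6851 in Tfh-like (GFP), a log2 fold of 0.55. Among 26 glycolysis and hypoxia genes 15 lay within 1.5-fold, none was 2-fold higher in Th0 (Tox2) and the median was -0.48. The 4 that were 2-fold higher in Tfh-like (GFP) were Egln3 (-2.44), which marks HIF proteins for breakdown, Hif1a itself (3002 against 9234, -1.71), Vegfa (-1.31) and the glucose transporter Slc2a3 (9323 against 20961, -1.26). The enzymes Ldha (-0.36) and Pkm (-0.41) lay within 1.5-fold. Cholesterol synthesis genes had 11 of 23 within 1.5-fold and 3 that were 2-fold higher in Tfh-like (GFP), Hsd17b7 (-1.63), Fdps (-1.10) and Mvd (-1.02), with a median of -0.49. The call of Mvd ended when libraries were scaled by total counts (-0.94). In the amino acid response, Asns, asparagine synthetase, had 170 counts against 464 (-1.53) and Cth 170 against 657 (-2.03), both lower in the Tox2 libraries, and 14 of 22 genes lay within 1.5-fold. The cell cycle inhibitor Cdkn1a had 1561 counts against 6432 (-2.13). Of 16 BCL2 family genes 2 were 2-fold higher in Th0 (Tox2), 3 were 2-fold higher in Tfh-like (GFP) and 4 lay within 1.5-fold, with a median of -0.22. Among all genes these shares were 5.03%, 7.59% and 57.2%. The death-promoting members Bcl2l11 (4947 against 1763, 1.40) and Bmf (798 against 221, 1.75) were the 2. In Th0 (GFP) Bcl2l11 had 4742 counts, close to Th0 (Tox2), and Bmf had 386. The 3 were Bik, also death-promoting (24 against 107, -2.15), and the survival members Bcl2a1d (414 against 955, -1.29) and Bcl2a1a (233 against 493, -1.16).

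Some genes had like levels in the compared libraries while both lay far from Th0 (GFP). Smad3, the signal transducer of TGF-beta receptors, had 292 counts in Th0 (GFP), 1311 in Tfh-like (GFP), 1135 in Th0 (Tox2) and 1105 in Tfh-like (Tox2). The 3 libraries with either agent or both were high, and the compared pair differed by a log2 fold of -0.30 (interval -0.41 to -0.18). Smad2, Smad4, Smad7 and Tgfb1 lay within 1.5-fold as well, while Tgfb3 had 61 counts against 555 (-3.23) and Skil, a repressor of Smad proteins, 2496 against 715 (1.71). Abhd15 had 27 counts in Th0 (GFP), 115 in Tfh-like (GFP), 121 in Th0 (Tox2) and 254 in Tfh-like (Tox2). It was thus lowest with neither agent and highest with both, as were Pwwp2b (31, 97, 115 and 304) and the glycosyltransferase B3gnt3 (144, 516, 441 and 793). Rnf152 had 69, 217, 248 and 274 counts.

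Another 5 genes were alike and below Th0 (GFP). Marcksl1, an actin-binding protein, had 5836 counts in Th0 (GFP), 1906 in Tfh-like (GFP), 2662 in Th0 (Tox2) and 1330 in Tfh-like (Tox2), and the compared pair differed by 0.39 (interval 0.31 to 0.48). The peroxisomal transporter Abcd3 had 2370, 938, 1181 and 645 counts, and Shtn1 1702, 776, 711 and 521. The chemokine Ccl4 had 349, 159, 164 and 51 counts, with a fold of -0.04 (interval -0.37 to 0.28). Hist1h2ao had 438, 205, 218 and 190. For all of these Tfh-like (Tox2) was the lowest library. These genes were picked for being alike and away from Th0 (GFP), a control both distances share, so their pattern is a description and nothing about a common action follows from it.

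**Figure D5:**
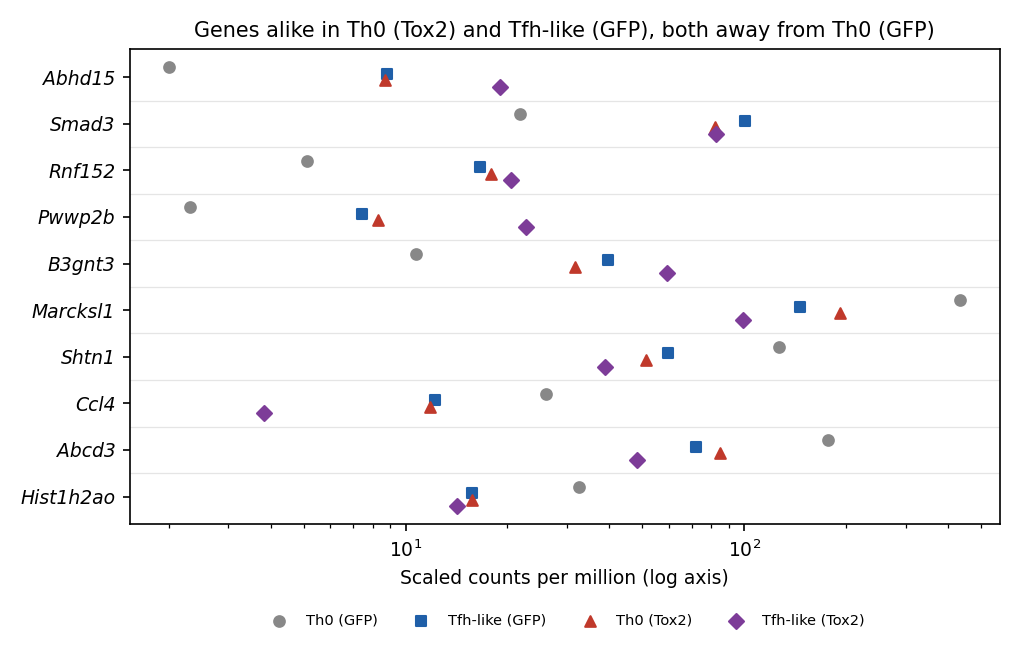
Scaled CPM (log axis) in the 4 libraries for the 10 genes chosen as within 1.5-fold between Th0 (Tox2) and Tfh-like (GFP) and furthest from Th0 (GFP). Red and blue markers lie close together in each row, to the right of the grey Th0 (GFP) marker from Abhd15 to B3gnt3 and to its left from Marcksl1 to Hist1h2ao.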

How the data were processed

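RNA-seq of 4 libraries was used, 1 per group. Per the file headers, the deposited tables give a whole-number read count per gene, not normalized, and FPKM that the authors computed for the same genes. FPKM over count was 1 factor per library times 1 per gene (spread at most 3.60e-06 percent). Per the submitters' processing notes, the build was mm10 and the tools included featureCounts (Subread), Bowtie2, edgeR, MACS2 and Trim Galore (0.4.4). For the annotation and for strand the setting is not given in the sources used here, so overlapping, antisense and near-identical genes can share or lose reads. All 11027 genes listed had a CPM of at least 0.658 in their second-highest library and at least 24 counts in sum, so genes silent throughout are not in the tables.

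Counts were joined on gene symbol and scaled by TMM over the 4 libraries (edgeR 4.0.16, R 4.3.3); the factors were 1.02 in Th0 (Tox2) and 0.966 in Tfh-like (GFP). Totals were 13015283 to 13673774. A gene was kept at a CPM of 1 or more in either compared library. Intervals are exact Clopper-Pearson intervals of the count ratio (scipy 1.17.1) and cover counting error alone; without molecular identifiers, reads do not stand for separate molecules. The additive edgeR fit and DESeq2 1.42.0 used culture plus virus over 4 libraries, 2 per level, with 1 residual degree of freedom; no p-value here measures spread between replicates or animals. Calls and fits were tested on simulated data. The 37 gene lists, the members and the rule for named genes were chosen with earlier results of these data known, and the lists overlap. The rule takes Tox2, 12 T-cell genes, the 10 largest folds per side at a CPM of at least 5, up to 4 called members of each list per side, and 5 genes per direction that are within 1.5-fold and furthest from Th0 (GFP), without predicted genes and receptor segments. Other list members were named after their values were seen. Gene coordinates are from GENCODE (GRCm38) and promoters from RefSeq (GRCm38.p6). Values of some genes are not reported here.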

Additional observations from a re-analysis of the deposited data

How the results depend on the processing

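The number of genes 2-fold apart ranged from 1113 (CPM of at least 5) to 1406 (prior count 0.5) over other scalings, filters, prior counts and removal of a trend with GC and length, against 1375. The additive layout gave 1636 genes at an adjusted p under 0.05 with edgeR and 1122 with DESeq2. No 2-fold call of a named gene changed direction over these settings. Scaling by total counts moved the median of all genes by 0.075 and the share of calls higher in Th0 (Tox2) from 39.9% to 44.5%. Of 1226 folds of named genes, 41 moved by more than their counting error. The 2-fold call ended for Prdm1, Fas and Mvd with total counts (Mvd at -0.94), and for Prdm1 (-0.71) and Fas with a prior count of 10. It also ended for Nrp1, Tnfsf10, Fas, Itgb8, Ifit2 and Mvd with the GC and length trend removed (0.99, 0.93, -0.98, 0.99, 0.96 and -0.80). At a CPM of at least 5, Prdm1, Il13, Areg, Itgae, Batf3, Id1 and Itga2 were not compared. Across genes, folds had a Spearman rho of 0.19 with gene length and -0.18 with GC, and what lies behind this was not tested. Of 123 named genes 2-fold apart, 113 passed the additive edgeR fit; the 10 that did not were Prdm1, Il2ra, Itgae, Id1, Itgb8, Fdps, Mvd, Fas, Bik and Itga2. Named genes were mostly chosen for their folds in libraries that the fit also uses, so this pass rate is no separate support for them. The median width of the counting interval was 0.35 on the log2 scale, and it is wider at low counts, as for Prdm1. No paired analysis was possible because the labels carry no replicate numbers and each group holds 1 library, and for the same reason no library could be left out of the comparison.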
